A study of Mus musculus with 12 samples.

Results

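The nuclear-encoded subunits of the oxidative phosphorylation machinery were examined in blood-forming stem and progenitor cells with and without the transcription factor NFAT5. The set held 85 genes of the 19494 with a named probe set on the array. They were all genes whose symbol starts with Ndufa, Ndufb, Ndufc, Ndufs, Ndufv, Uqcr, Cox4 to Cox8 or Atp5, plus Sdha, Sdhb, Sdhc and Sdhd, without the Ndufaf assembly factors. By complex they comprised 36 genes of complex I, 4 of complex II, 8 of complex III, 20 of complex IV and 17 of complex V (ATP synthase). Each was read by 1 probe set, and all 85 passed the filter on low signal, which left 14620 genes for testing. No probe set was named for a mitochondrially encoded subunit, so those transcripts were not analysed here.

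KO animals were Nfat5 fl/fl Vav-Cre mice, in which the Cre recombinase driven by the pan-haematopoietic Vav promoter removes floxed Nfat5 throughout the blood system. WT animals were Nfat5 +/+ Vav-Cre mice, so all 4 groups carried the Cre. All animals were untreated and in steady state, and no age is stated in the labels. Haematopoietic stem cells (HSC) were sorted from bone marrow as CD48-CD150+ LSK cells and multipotent progenitors (MPP) as CD48+CD150- LSK cells, where LSK stands for lineage-negative cells that carry Sca-1 and Kit. The groups were HSC of 3 KO mice, HSC of 3 WT mice, MPP of the same 3 KO mice and MPP of the same 3 WT mice, with 1 array per mouse and population (12 arrays). In such bulk samples fewer cells of a type and less RNA per cell cannot be told apart.

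Oxidative phosphorylation takes place in the inner mitochondrial membrane. Complex I accepts electrons from NADH and complex II from succinate, and both hand them to ubiquinone. Complex III passes them on to cytochrome c and complex IV to oxygen. Complexes I, III and IV pump protons, and complex V lets the protons flow back to make ATP. Stem cells of the bone marrow are known for low mitochondrial activity at rest and for turning to oxidative phosphorylation as they divide and differentiate. NFAT5 is known for the transcriptional response to osmotic stress.

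The promoters of Sdhb and Atp5g3 are shown because these were the only subunit genes to pass the test in the main fit of any comparison. Sdhb encodes the iron-sulphur subunit of succinate dehydrogenase, which carries electrons to ubiquinone. Atp5g3 encodes 1 copy of subunit c, which forms the rotating ring of ATP synthase. Each window runs from 250 bases before the start site to 50 after it, on build GRCm38.p6, from RefSeq. The Sdhb window is chr4:140961021-140961320 on the + strand, and the Atp5g3 window is chr2:73911277-73911576 on the - strand. Capitals in Sdhb mark 3 matches to the SP1 letters GGGCGG, read on the other strand, and 1 match to the ETS (GABP) letters CCGGAAG. Capitals in Atp5g3 mark 1 match to the oestrogen-related receptor (ERR) letters TCAAGGTCA and 1 to the NRF1 letters (GCGCAN followed directly by GCGC), both read on the other strand.
Sdhb: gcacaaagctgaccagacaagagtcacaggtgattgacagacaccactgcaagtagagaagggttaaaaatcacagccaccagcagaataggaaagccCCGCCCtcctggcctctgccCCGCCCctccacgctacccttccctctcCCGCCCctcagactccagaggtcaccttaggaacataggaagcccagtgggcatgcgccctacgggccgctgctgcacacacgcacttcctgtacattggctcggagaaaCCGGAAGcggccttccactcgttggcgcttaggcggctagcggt
Atp5g3: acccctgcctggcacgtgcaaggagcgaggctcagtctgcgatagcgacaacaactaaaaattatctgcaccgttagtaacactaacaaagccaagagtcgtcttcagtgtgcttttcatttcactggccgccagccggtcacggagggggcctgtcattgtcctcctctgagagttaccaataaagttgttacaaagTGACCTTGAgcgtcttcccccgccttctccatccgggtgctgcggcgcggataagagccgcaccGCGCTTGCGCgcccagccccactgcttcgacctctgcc
In Sdhb the SP1 matches lie upstream of the start site and the ETS match begins 6 bases after it. In Atp5g3 the ERR match begins at position -52 and the NRF1 match lies from 12 to 21 after the start. None of these matches overlap each other.

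Both strands of 70 subunit promoters were searched; the other 15 subunits had no window in the table. NRF1 letters stood in 16 of the 70 windows (22.9%), against 7.04% of all 15683 promoter windows. ETS letters were also found in 16 (22.9%, against 12.2%). YY1 letters (AAGATGGC) were found in 9 (12.9%, against 3.32%), of which 7 belonged to complex I. ERR letters stood in the windows of Atp5g3 and Sdhd, which made 2.86% of the subunits against 0.306% of all promoters. CREB letters (TGACGTCA) were in 4 windows (5.71%, against 2.42%) and SP1 letters in 29 (41.4%, against 48.2%). The tonicity element that NFAT5 binds was matched by 3 windows, those of Ndufb10, Ndufs3 and Uqcrh (4.29%, against 4.25%). These shares describe letters in windows and not bound sites, and the motifs and the printed pair were chosen after their values were seen.

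The arrays matched their labels in the sorted markers. The CD150 gene Slamf1 was higher in HSC than in MPP by 2.47 in KO and 2.24 in WT on the log2 scale, while Cd48 differed by -3.18 in KO and -2.82 in WT, all 4 past the test. Nfat5 averaged 7.69 ± 0.31 in KO HSC and 8.60 ± 0.36 in WT HSC, and 7.16 ± 0.25 in KO MPP and 8.03 ± 0.24 in WT MPP (SD, n = 3 each). The 2 Nfat5 differences, -0.91 and -0.87, missed the limma threshold of an adjusted p under 0.05 (adjusted p = 0.566 and 0.9999), with all KO arrays below all WT arrays in both populations. The labels do not say which part of Nfat5 is floxed, so the probe set may lie outside it. Among the arrays, that of the HSC of KO mouse 2 differed most from its group: its deviations from the group mean had an SD of 0.438 over all genes, against 0.276 to 0.378 on the other 11 arrays. Its subunit deviations had an SD of 0.353, against 0.147 to 0.295 elsewhere, so results that rest on it are also given without it. All values below are log2 signals, and signals of different probe sets are not compared with each other as amounts of RNA.

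**Figure D1:**
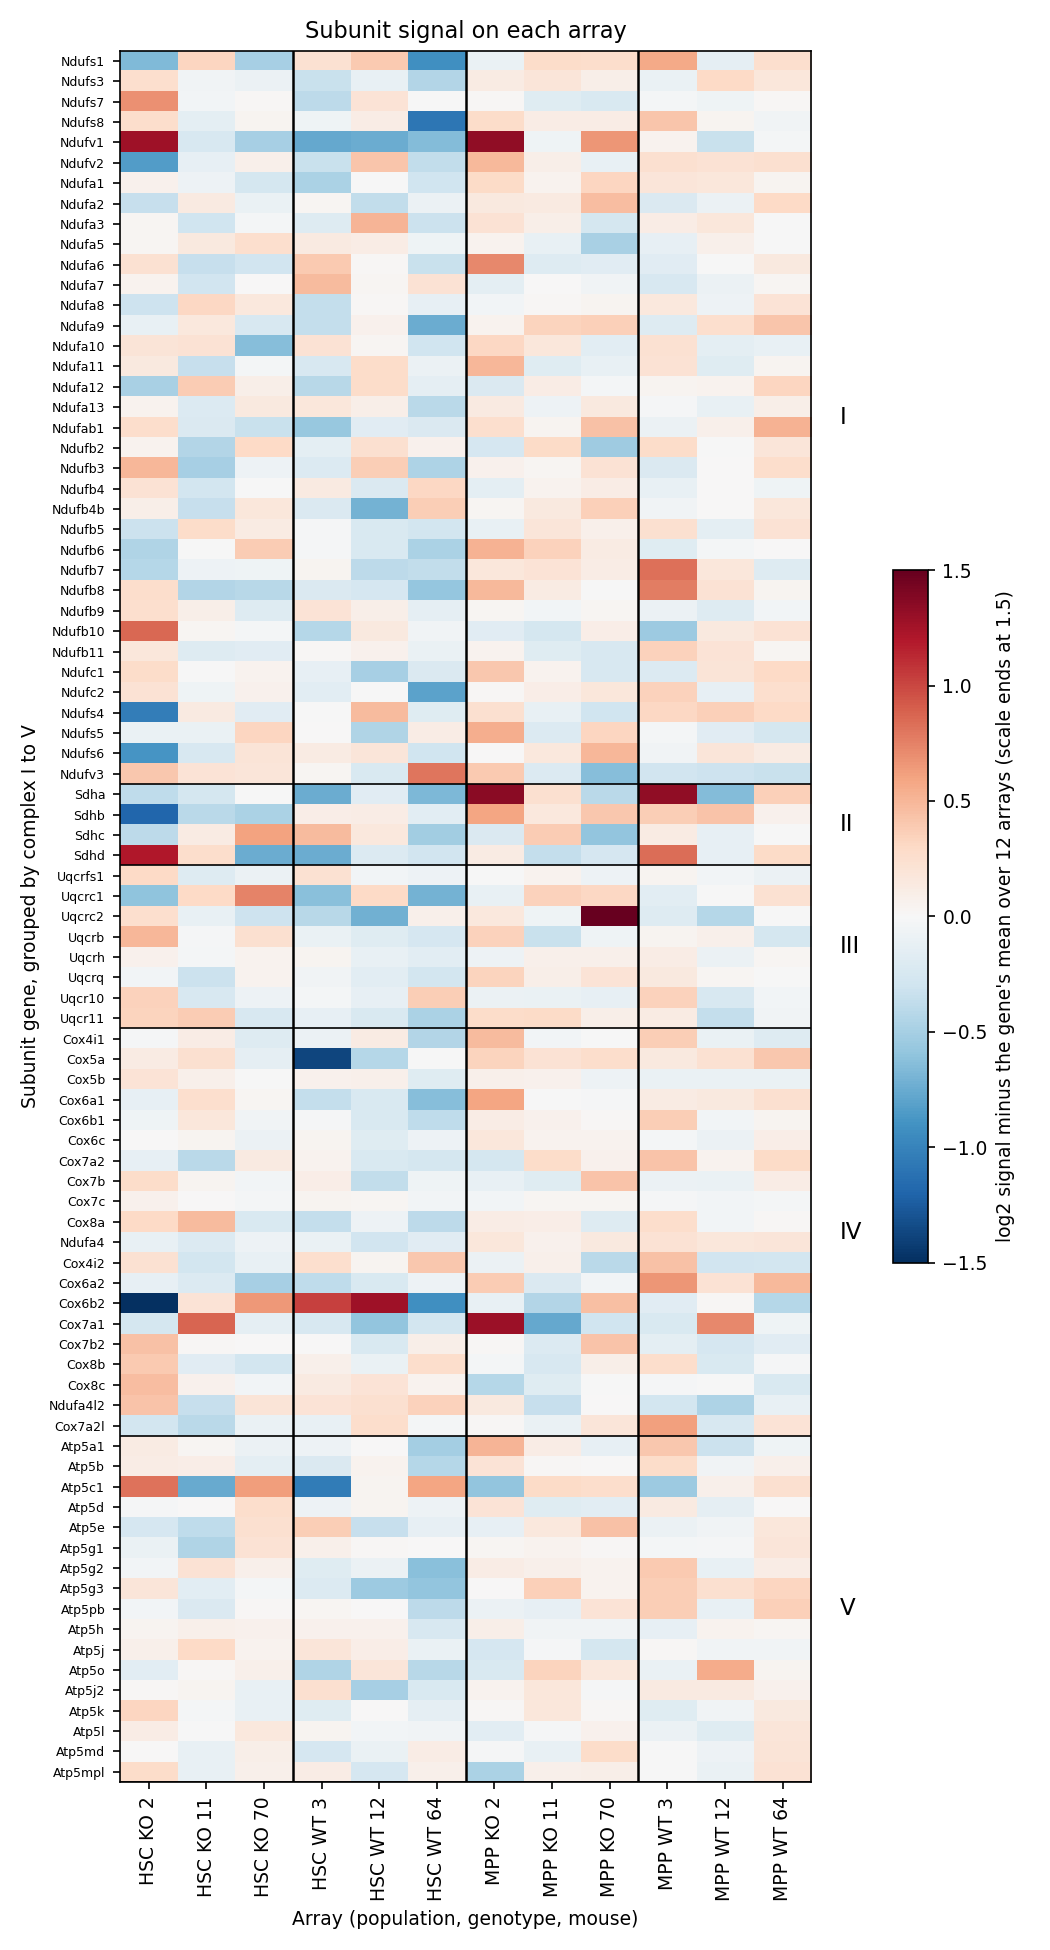
Log2 signal of each of the 85 subunit genes (rows, grouped by complex I to V) on each of the 12 arrays (columns), as the deviation from that gene's mean over all arrays. Most rows are pale. The strongest colours sit in Ndufv1, Sdha, Sdhb, Sdhd, Uqcrc2, Cox6b2, Cox7a1 and Atp5c1, and the HSC array of KO mouse 2 holds several of them.

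Most subunit genes varied little between replicate mice. The median SD within groups was 0.25 over the 85 subunits, against 0.36 over the 2553 genes in the same range of mean signal (7.91 to 10.06, the quartiles of the subunits) and 0.29 over all genes tested. By complex this median was 0.28 in complex I, 0.51 in complex II, 0.24 in complex III, 0.23 in complex IV and 0.18 in complex V. Cox7c, a small structural subunit of cytochrome c oxidase, was the steadiest, with all 12 arrays within 0.10 of each other and an SD of 0.04. Ndufa4, long counted to complex I and now known as a complex IV subunit, had an SD of 0.07. Uqcrh, the hinge protein of complex III, and Cox6c had SDs of 0.09 each.

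The widest spread was in Cox6b2, the testis form of subunit VIb. Its signal was 7.13, 8.90 and 9.35 in KO HSC, 9.72, 9.96 and 7.78 in WT HSC, 8.58, 8.25 and 9.15 in KO MPP, and 8.52, 8.71 and 8.26 in WT MPP, with an SD of 0.87 within groups. High and low arrays occurred in both genotypes of the HSC. Sdha, the flavoprotein of succinate dehydrogenase, had an SD of 0.69, and Atp5c1, the gamma shaft of ATP synthase, and Cox7a1, a muscle form, had 0.68 each. In Ndufv1, which holds the NADH-binding site of complex I, the SD was 0.60. A group mean of 3 arrays is correspondingly loose for these genes.

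Complex IV includes forms known from other tissues, and the ranges of their signals are given here. Cox4i2, the lung form of subunit IV, lay between 5.55 and 6.38 over the 12 arrays. Cox7a1 ranged from 5.16 to 7.22, and the testis form Cox7b2 from 4.999 to 5.69. Ndufa4l2, a hypoxia-induced relative of Ndufa4, ranged from 4.98 to 5.87. The low-signal limit of the filter was 4.96, so the lowest arrays of Cox7b2 and Ndufa4l2 lay just above it. The muscle form Cox6a2 ranged from 6.51 to 7.68 and the testis form Cox8c from 5.90 to 6.79. Cox8b, another muscle form, ranged from 5.19 to 5.85. Among the widely expressed forms, Cox4i1 ranged from 10.04 to 10.95, Cox6a1 from 8.82 to 10.06, Cox6b1 from 9.89 to 10.64, Cox7a2 from 9.10 to 9.93 and Cox8a from 8.70 to 9.57. The c-ring genes ranged from 7.47 to 8.13 (Atp5g1), 9.10 to 10.11 (Atp5g2) and 9.42 to 10.38 (Atp5g3). Atp5g1, Atp5g2 and Atp5g3 encode the same mature protein, and Ndufb4 and Ndufb4b are near copies, so how far their probe sets are separate was not tested.

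Loss of NFAT5 was not accompanied by a change in any subunit gene in HSC that passed the test. In KO against WT HSC, 0 of 85 passed (limma, adjusted p under 0.05), as did 0% of all genes, and the lowest adjusted p of a subunit was 0.638. At an unadjusted p under 0.05 there were 5 subunits (5.88%), against 6.29% of all genes. Of these 4 were higher (Cox5a, Cox6a1, Cox8a and Atp5g3) and 1 was lower (Sdhb). The median difference over the 85 subunits was 0.10 and 61 of them lay above 0 (71.8%), against a median of 0.02 and 53.4% above 0 over all genes. Genes of the same signal range had a median of 0.02. With each mouse left out in turn the subunit median was 0.06 (without mouse 64) to 0.13 (without mouse 11), and without the HSC array of KO mouse 2 it was 0.07.

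The differences were spread over the complexes. Medians for KO minus WT in HSC were 0.08 in complex I (23 of 36 above 0), 0.19 in complex II (3 of 4), 0.20 in complex III (6 of 8), 0.05 in complex IV (14 of 20) and 0.12 in complex V (15 of 17). The mean over the 8 complex III genes was 8.93, 8.76 and 8.83 on the KO HSC arrays, against 8.65, 8.63 and 8.59 on the WT HSC arrays. All 3 KO means lay above all 3 WT means there. In complexes I, II, IV and V the KO and WT array means overlapped. The overlap was slight in complex IV (8.68 to 8.76 in KO, 8.59 to 8.69 in WT) and complex V (9.65 to 9.82 in KO, 9.55 to 9.66 in WT). The mean over all 85 subunits was 8.95, 8.87 and 8.90 on KO HSC arrays, against 8.82, 8.87 and 8.71 on WT HSC arrays. The lowest KO mean and the highest WT mean were almost equal, and the genes of the same signal range averaged 8.53, 8.73 and 8.73 on the KO arrays and 8.59, 8.76 and 8.59 on the WT arrays.

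**Figure D2:**
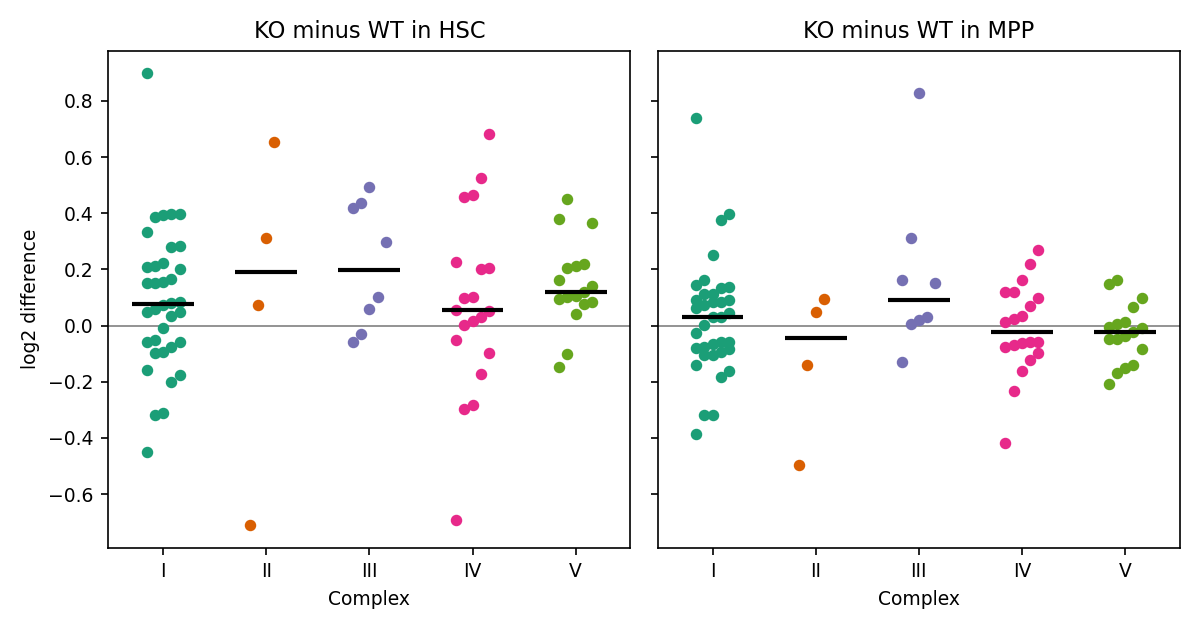
KO minus WT log2 difference of each subunit gene (points) in HSC (left) and MPP (right), by complex, with the median of each complex as a bar. In HSC the bars lie between 0.05 and 0.20, and in MPP between -0.04 and 0.09.

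In complex I, the catalytic subunit Ndufv1 had 8.89, 7.37 and 7.11 in KO HSC, against 6.85, 6.87 and 6.97 in WT HSC. The groups did not overlap, but the KO array of mouse 2 lay far above the other two. The difference was 0.90 (SE 0.44, limma adjusted p = 0.807), and 0.35 without that array. Ndufs3, a core subunit of the arm that faces the matrix, had 10.60, 10.29 and 10.26 in KO HSC, against 10.01, 10.24 and 9.91 in WT HSC, a difference of 0.33 (SE 0.16). Its groups did not overlap by a narrow margin. Ndufs4, an accessory subunit whose loss gives mice a Leigh-like encephalopathy, had 8.496, 9.68 and 9.37 in KO HSC, against 9.53, 10.01 and 9.36 in WT HSC. Its groups overlapped, and the difference of -0.45 (SE 0.29) was -0.11 without the array of KO mouse 2. The accessory subunit Ndufa7 differed by -0.32 (SE 0.16), with overlapping groups, and by -0.20 without mouse 3.

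In complex II the 2 subunits with the lowest p pointed in opposite directions. Sdhb had 7.65, 8.43 and 8.36 in KO HSC, against 8.94, 8.95 and 8.69 in WT HSC. All 3 KO arrays lay below all 3 WT arrays, the array of mouse 2 the farthest. The difference was -0.71 (SE 0.22, limma adjusted p = 0.638), and -0.46 without that array. Sdhd, which anchors the complex in the membrane, had 7.33, 6.40 and 5.39 in KO HSC, against 5.39, 5.93 and 5.84 in WT HSC. The KO arrays spanned nearly the whole WT range, and the difference of 0.65 (SE 0.42) was 0.17 without the array of KO mouse 2 and 1.14 without KO mouse 70.

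In complex III, Uqcrb had 10.47, 9.95 and 10.21 in KO HSC, against 9.87, 9.79 and 9.71 in WT HSC. The groups of this small subunit near the ubiquinone site did not overlap (difference 0.42, SE 0.20, limma adjusted p = 0.805). Uqcr11, another small subunit, had 8.25, 8.30 and 7.68 in KO HSC, against 7.79, 7.70 and 7.44 in WT HSC. Here 2 KO arrays lay above and 1 lay within the WT range (difference 0.44, SE 0.20).

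In complex IV, Cox5a had 9.39, 9.52 and 9.14 in KO HSC, against 7.90, 8.85 and 9.26 in WT HSC. The low WT array of mouse 3 carried much of the difference of 0.68 (SE 0.28, limma adjusted p = 0.790), which was 0.30 without that mouse. Cox6a1, the widely expressed form of subunit VIa, had 9.34, 9.71 and 9.48 in KO HSC, against 9.10, 9.23 and 8.82 in WT HSC. All its KO arrays lay above all its WT arrays (difference 0.46, SE 0.19). Cox8a had 9.39, 9.57 and 8.87 in KO HSC, against 8.73, 9.01 and 8.70 in WT HSC, an overlapping pair of groups with a difference of 0.46 (SE 0.20). Cox7a2l, which joins complexes III and IV into supercomplexes, and Cox4i2 averaged lower in KO (-0.30, SE 0.21, and -0.28, SE 0.23), each with overlapping groups. Leaving out 1 mouse gave -0.38 to -0.18 for Cox7a2l and -0.43 to -0.17 for Cox4i2.

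In complex V the c-ring genes Atp5g2 and Atp5g3 had non-overlapping groups. Atp5g3 had 10.20, 9.86 and 9.98 in KO HSC, against 9.80, 9.47 and 9.42 in WT HSC (difference 0.45, SE 0.16, limma adjusted p = 0.701). Atp5g2 had 9.68, 9.93 and 9.80 in KO HSC, against 9.54, 9.64 and 9.10 in WT HSC (difference 0.38, SE 0.18, and 0.22 without mouse 64). The margins between the groups were narrow in both genes. In all, 7 subunits (8.24%) had every KO HSC array above every WT HSC array, against 5.15% of all genes. They were Ndufs3, Ndufv1, Ndufc1, Uqcrb, Cox6a1, Atp5g2 and Atp5g3. Only Sdhb (1.18%) had every KO array below every WT array, against 3.72% of all genes.

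Markers of other cells were measured on the same arrays. The mean level of the MPP markers (9 tested of 10 listed) was 5.94 to 6.30 on KO HSC arrays and 5.77 to 5.92 on WT HSC arrays, with 7 of 9 above 0 and a median difference of 0.31. Neutrophil markers (10 on the array of 11 listed) averaged 5.63 to 7.55 in KO HSC and 5.82 to 7.82 in WT HSC. Of the 9 that were tested 2 were above 0, with a median difference of -0.87. Mitosis genes averaged 7.29 to 7.84 in KO HSC and 7.38 to 7.66 in WT HSC, with 12 of 21 above 0 and a median difference of 0.06. T and NK cell markers (9 on the array, 4 tested) averaged 4.93 to 5.07 in KO HSC and 4.76 to 4.87 in WT HSC. These means lay near the low-signal limit of 4.96, and all 4 tested were above 0. Array means of monocyte, erythroid, B cell, megakaryocyte, endothelial and dendritic markers overlapped between KO and WT HSC. No gene of these lists passed in that comparison, and the part of other cells or of cell division in the subunit values was not tested.

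In MPP, 0 of 85 subunits differed between KO and WT (limma, adjusted p under 0.05; background 0%). At an unadjusted p under 0.05 there were 0, against 3.19% of all genes. The median difference was 0.01, against 0.002 over all genes and -0.03 over genes of the same signal range, and 45 of 85 lay above 0. This median had no settled sign, with -0.02 to 0.04 over the mice left out and values just below 0 without mouse 2, without mouse 12 and with weights per array. Every KO array lay above every WT array for Ndufb6 and Cox5b (2.35%, background 4.82%). The reverse held for Ndufs4 alone (1.18%, background 4.66%).

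Among the MPP values, Ndufb6 of the membrane arm of complex I had 10.43, 10.25 and 10.03 in KO, against 9.72, 9.88 and 9.91 in WT. The groups stood apart narrowly, with a difference of 0.40 (SE 0.21). Ndufs4 had 9.77, 9.43 and 9.23 in KO MPP, against 9.85, 9.90 and 9.83 in WT MPP (difference -0.38, SE 0.29). All KO arrays were lower, as its group mean was in HSC. Ndufv1 had 8.94, 7.54 and 8.28 in KO MPP, against 7.67, 7.28 and 7.59 in WT MPP (difference 0.74, SE 0.44). Its highest array again came from KO mouse 2, and without that mouse the difference was 0.40. The accessory subunits Ndufs5 (0.38, SE 0.22), Ndufb11 (-0.32, SE 0.16) and Ndufb2 (-0.32, SE 0.24) had overlapping groups. Ndufs5 was at 0.21 without mouse 2, and Ndufb2 at -0.14 without mouse 70.

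Uqcrc2, a core protein of complex III, had 8.59, 8.37 and 10.20 in KO MPP, against 8.25, 8.004 and 8.43 in WT MPP. A single array, that of KO mouse 70, stood far above the rest. The difference of 0.83 (SE 0.41) was 0.26 without that mouse. Uqcr11 differed by 0.31 (SE 0.20), and by 0.18 without mouse 12. In complex IV, Cox6a2 had 7.39, 6.79 and 6.97 in KO MPP, against 7.68, 7.23 and 7.501 in WT MPP, a difference of -0.42 (SE 0.19) with overlapping groups. Cox7a2 (-0.23, SE 0.19) and Cox7b2 (0.27, SE 0.19) overlapped as well. Cox7a2 was at -0.09 without mouse 2, and Cox7b2 at 0.10 without mouse 70. In complex II, Sdhd differed by -0.49 (SE 0.42), and by -0.24 without mouse 3. Sdhb differed by 0.09 (SE 0.22), with -0.02 to 0.21 over the mice left out. In complex V the smallest p-values belonged to Atp5pb and Atp5j of the peripheral stalk, at -0.21 (SE 0.18) and -0.15 (SE 0.14). Leaving out 1 mouse gave -0.37 to -0.13 for Atp5pb and -0.23 to -0.11 for Atp5j.

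With the 2 arrays of each mouse averaged, 0 of 85 subunits passed in 3 KO against 3 WT mice (background 0%). There were 2 subunits at an unadjusted p under 0.05 (2.35%, background 4.45%), Ndufb6 at 0.31 (SE 0.12) and Ndufs4 at -0.42 (SE 0.16). Uqcr11 (0.37, SE 0.16), Uqcrc2 (0.56, SE 0.25), Sdhb (-0.31, SE 0.14) and Ndufb2 (-0.20, SE 0.11) came next. The subunit median was 0.06, against 0.01 over all genes, and it was 0.02 without mouse 12 and 0.09 without mouse 11. The value of Uqcrc2 was 0.34 without mouse 70. Values for the mean of both populations share their arrays with the HSC and MPP values above.

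HSC were compared with MPP to see whether the subunits differ between the stem cells and their progeny. In WT mice 1 of 85 subunits passed (1.18% of them; background 2.07%), and it was lower in HSC. Atp5g3 had 9.80, 9.47 and 9.42 in WT HSC, against 10.38, 10.25 and 10.34 in WT MPP. All HSC arrays lay below all MPP arrays, and the MPP arrays were close together. Its difference was -0.76 (SE 0.16, limma adjusted p = 0.0407), and with the mouse as a block the adjusted p was 0.127. It also missed the threshold when any one mouse was left out, at adjusted p-values of 0.0506 to 0.299 and differences of -0.85 to -0.68. The WT HSC arrays of this comparison are those that KO HSC were set against above.

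At an unadjusted p under 0.05 there were 12 subunits (14.1%, background 14.1%), of which 11 were lower and 1 was higher in WT HSC. Ndufa4 had 11.44, 11.26 and 11.38 in WT HSC, against 11.76, 11.71 and 11.72 in WT MPP (difference -0.37, SE 0.12, adjusted p = 0.178 in limma). This WT difference passed under 1 of 17 alternative settings. Cox6a2 had 6.63, 6.79 and 6.94 in WT HSC, against 7.68, 7.23 and 7.501 in WT MPP (difference -0.68, SE 0.19). Neither gene had overlapping groups. On the higher side stood Ndufa4l2 (0.55, SE 0.21), Ndufv3 (0.51, SE 0.29) and Ndufa7 (0.34, SE 0.16), where Ndufv3 was at 0.20 without mouse 64 and Ndufa7 at 0.15 without mouse 3. Groups did not overlap in 15 subunits that were lower in HSC (17.6%, background 10.3%) and in 3 that were higher (3.53%, background 11%), which were Ndufv3, Cox8c and Ndufa4l2. Among genes of the same signal range, 19.7% were lower and 6.66% higher without overlap.

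In KO mice 1 of 85 subunits passed (background 1.26%). Sdhb had 7.65, 8.43 and 8.36 in KO HSC, against 9.43, 9.001 and 9.25 in KO MPP. All HSC arrays lay below all MPP arrays, and the lowest and the highest came from the same mouse. Its difference was -1.08 (SE 0.22, limma adjusted p = 0.0446). The call was lost with the mouse as a block (adjusted p = 0.128) and without the HSC array of KO mouse 2 (-0.83, adjusted p = 0.0899). Leaving out any one mouse ended it too, at adjusted p-values of 0.0786 to 0.213.

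At an unadjusted p under 0.05 there were 2 subunits in KO (2.35%, background 12.4%), Sdhb and Atp5j. Atp5j, coupling factor 6 of the stalk that holds ATP synthase still, had 10.87, 11.10 and 10.85 in KO HSC, against 10.54, 10.78 and 10.53 in KO MPP (difference 0.32, SE 0.14). It was the 1 subunit with all KO HSC arrays above all KO MPP arrays (1.18%, background 9.77%). Those entirely lower in KO HSC were Ndufa2, Ndufb7, Sdhb, Uqcrq, Cox6c and Ndufa4 (6 subunits, 7.06%, background 7.33%). Uqcrq differed by -0.32 (SE 0.14), Ndufa4 by -0.26 (SE 0.12), Cox8c by 0.37 (SE 0.17) and Ndufa5 by 0.32 (SE 0.16). Cox8c was at 0.11 without KO mouse 2 and 0.22 without its HSC array alone. Ndufa5 was at 0.50 without mouse 2 and 0.12 without mouse 70.

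Averaged over both genotypes, 2 of 85 subunits passed, Sdhb and Atp5g3, both lower in HSC (2.35%; background 4.85%). The difference of Sdhb was -0.68 (SE 0.16, limma adjusted p = 0.0322). Its HSC minus MPP difference was below 0 in 6 of 6 mice, at -1.78, -0.57 and -0.89 in the KO mice, against -0.27, -0.32 and -0.22 in the WT mice. Every KO mouse had the larger gap. Atp5g3 differed by -0.45 (SE 0.11, limma adjusted p = 0.0495) and was lower in HSC in 5 of 6 mice. Its differences were 0.18, -0.51 and -0.09 in the KO mice, against -0.58, -0.78 and -0.92 in the WT mice. Here every WT mouse had the larger gap. The share of all genes with such a split between genotypes was not counted, and both genes were picked because they passed. The interaction passed for neither (limma adjusted p = 0.9996 for each). With the mouse as a block neither passed (adjusted p = 0.0904 for Sdhb and 0.125 for Atp5g3).

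The HSC array of KO mouse 2 did not decide these averaged values. Without it, Sdhb differed by -0.55 (limma adjusted p = 0.0353) and Atp5g3 by -0.50 (limma adjusted p = 0.0441). Leaving out a whole mouse kept Sdhb past the threshold only without mouse 11 (adjusted p = 0.0380, otherwise 0.0733 to 0.118), and Atp5g3 under none of the 6 (0.0585 to 0.198).

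**Figure D3:**
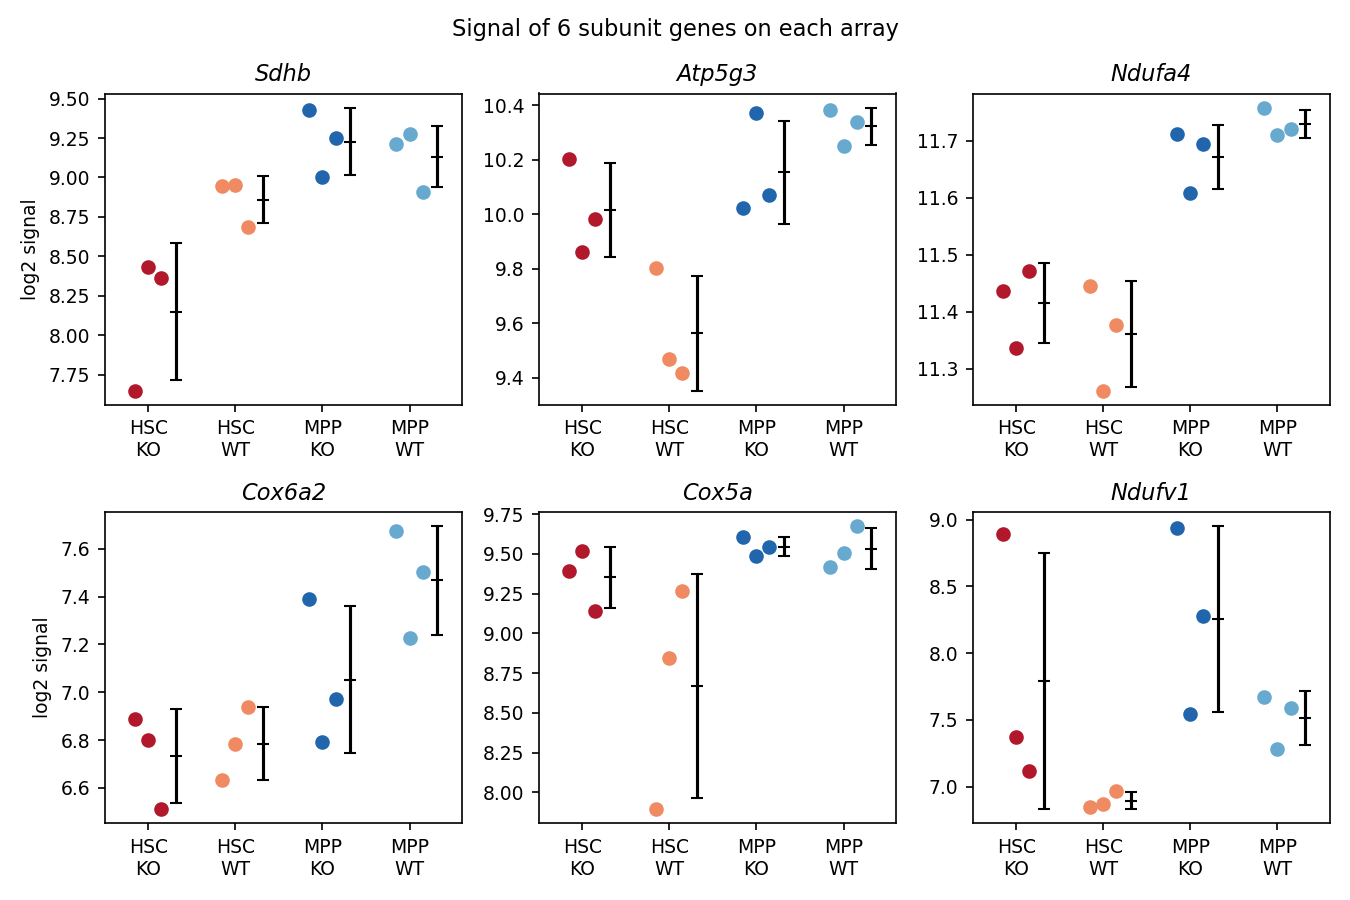
Log2 signal of 6 subunit genes on each array, in the order KO HSC, WT HSC, KO MPP and WT MPP. Points are single arrays, and the bar beside them is the mean with its SD (n = 3). Sdhb is lowest in KO HSC (7.65 to 8.43), Atp5g3 in WT HSC (9.42 to 9.80), and Ndufa4 lies lower in both HSC groups than in both MPP groups.

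The other named subunits missed the threshold over both genotypes. Ndufa4 differed by -0.31 (SE 0.08, limma adjusted p = 0.0609) and was lower in HSC of all 6 mice (-0.45 to -0.22). It passed under 2 of 18 alternative settings, with a lowest limma adjusted p of 0.00457. Cox6a2 differed by -0.50 (SE 0.14, limma adjusted p = 0.0681) and passed under 1 of 18 alternative settings. In complex I, Ndufb8 and Ndufa1, both of the membrane arm, differed by -0.54 (SE 0.18) and -0.35 (SE 0.11). Uqcrq differed by -0.27 (SE 0.10) and Uqcrc2 by -0.41 (SE 0.29), which was -0.06 without mouse 70. Sdha had 5.72, 5.84 and 6.09 in KO HSC and 5.35, 5.93 and 5.42 in WT HSC, against 7.45, 6.33 and 5.70 in KO MPP and 7.43, 5.45 and 6.45 in WT MPP. Its MPP arrays ranged so widely that the difference of -0.74 had an SE of 0.35, with -1.08 to -0.44 over the mice left out.

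Higher means in HSC were found for Ndufv3 (0.46, SE 0.20), Ndufa4l2 (0.35, SE 0.15), Cox8c (0.29, SE 0.12), Atp5j (0.21, SE 0.10) and Ndufa5 (0.20, SE 0.11). Ndufv3 was at 0.30 without mouse 64, Cox8c at 0.16 without mouse 2 and Ndufa5 at 0.10 without mouse 70. In all, 16 subunits had an unadjusted p under 0.05 (18.8%, background 19.6%), 13 of them lower and 3 higher in HSC. Lower in HSC in all 6 mice were 8 subunits, Ndufv1, Ndufa1, Ndufa9, Ndufb7, Ndufb8, Sdhb, Uqcrq and Ndufa4. They made 9.41% of the subunits, against 6.19% of all genes and 13.2% of genes of the same signal range. Higher in all 6 mice were Ndufv3 and Ndufa4l2 (2.35%, against 7.73% of all genes). The margin was almost nil in 1 mouse each, at 0.006 for Ndufv3 in mouse 2 and 0.002 for Ndufa4l2 in mouse 11. Ndufa4l2 also lay near the low-signal limit.

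The subunits as a group lay slightly lower in HSC, and so did the genes of the same signal range. The median over 85 subunits was -0.12 and 59 were below 0, against 0.05 over all genes and -0.14 over genes of the same signal range. That range, 7.91 to 10.06, runs between the quartiles of the subunits, so the 85 include subunits outside it and the 2 sets are not matched gene by gene. In WT alone the median was -0.14 (65 of 85 below 0), against 0.03 over all genes and -0.17 over genes of the same range. In KO alone it was -0.06 (52 below 0), against 0.05 and -0.11, and -0.10 without the HSC array of KO mouse 2. By complex the medians over both genotypes were -0.14 in I, -0.42 in II, -0.08 in III, -0.09 in IV and -0.09 in V. The median of all genes itself moved with the signal, at 0.10 for mean signals of 4 to 6, -0.07 for 7 to 8 and -0.15 for 8 to 9. The subunits in those ranges had medians of 0.13 (6 subunits), -0.11 (13) and -0.22 (15). For signals of 6 to 7 the subunit median was -0.19 (6 subunits), against 0.07 over all genes. It was -0.16 against -0.13 for 9 to 10, -0.13 against -0.10 for 10 to 11 and -0.09 against -0.03 for 11 to 14. These gaps between subunits and other genes were not tested. The SD over all probe sets was 1.66 to 1.75 on HSC arrays and 1.74 to 1.78 on MPP arrays. A second quantile normalization brought the subunit median to -0.02, and cyclic loess to -0.02.

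**Figure D4:**
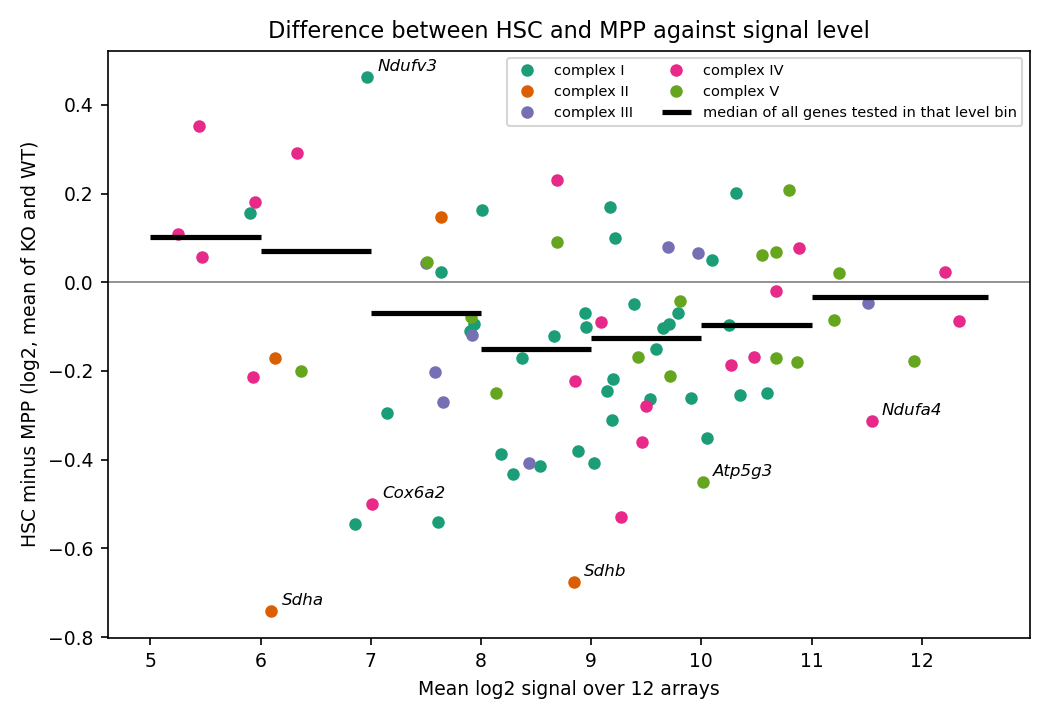
HSC minus MPP log2 difference (mean of both genotypes) of each subunit gene against its mean log2 signal over 12 arrays, coloured by complex. Black bars are the medians of all genes tested in each range of signal, 0.10 at the low end and -0.15 for signals of 8 to 9; most subunits scatter around them, and Sdhb and Sdha lie lowest.

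The arrays of the same mouse carried these values with some scatter. Subunit means were 9.05, 8.94 and 8.98 on the KO MPP arrays and 9.03, 8.90 and 9.001 on the WT MPP arrays. Every MPP mean was above the HSC mean of its own mouse. The mean over subunits minus that over genes of the same range was 0.14 to 0.42 in KO HSC, 0.11 to 0.23 in WT HSC, 0.09 to 0.28 in KO MPP and 0.04 to 0.25 in WT MPP. These 4 ranges overlapped.

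**Figure D5:**
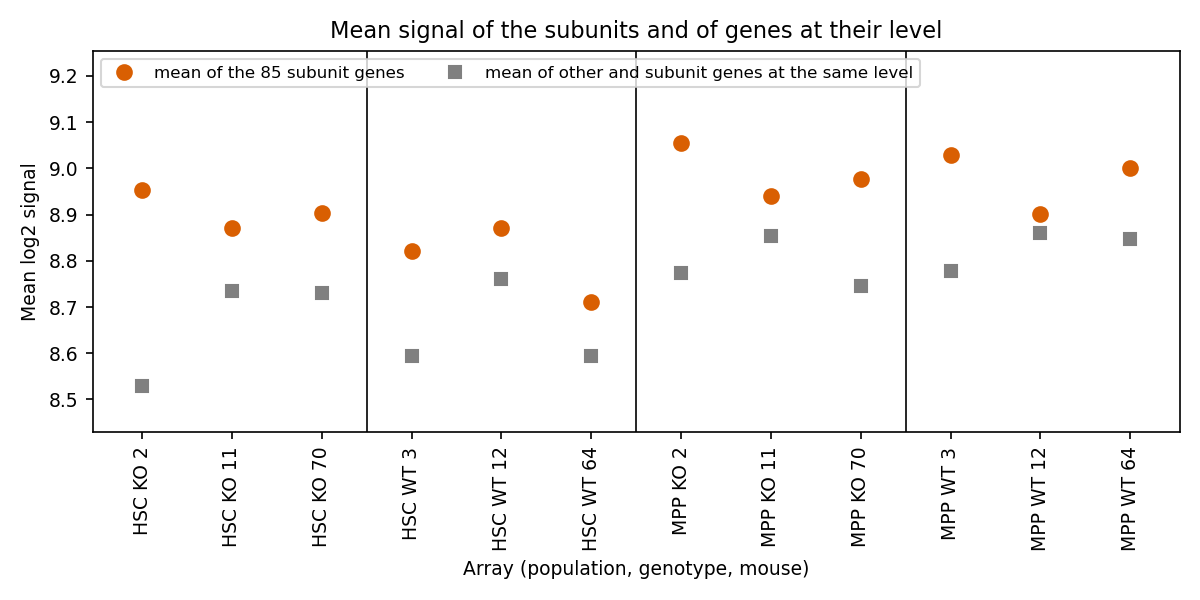
Mean log2 signal of the 85 subunit genes (circles) and of the 2553 genes in the same range of signal (squares) on each array. Subunit means run from 8.71 to 9.05, and both sets of points tend to be higher on MPP arrays.

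The difference between populations in the effect of NFAT5 loss was tested as an interaction. No subunit passed (0 of 85, background 0%), and 2 had an unadjusted p under 0.05 (2.35%, background 4.5%). They were Atp5g3, whose KO minus WT difference was 0.62 greater in HSC than in MPP (SE 0.23), and Sdhb, for which it was lower (-0.81, SE 0.31). Both had a limma adjusted p of 0.9996, and without the HSC array of KO mouse 2 the values were 0.53 and -0.56. Sdhd (1.15, SE 0.59), Cox8a (0.53, SE 0.28), Ndufa4l2 (-0.39, SE 0.30) and Ndufa7 (-0.35, SE 0.22) followed, of which Sdhd was at 0.67 without that array and Ndufa7 at -0.16 without mouse 3. Without the whole of mouse 2 Sdhb was at -0.45. The median over subunits was 0.11, against 0.01 over all genes and 0.05 over genes of the same range, and ran from 0.06 to 0.19 over the arrays left out. In complex V 15 of 17 subunits were above 0 (88.2%, median 0.18), against 51.8% of all genes and 54.8% of genes of the same range. The other complexes had 19 of 36 (I), 3 of 4 (II), 5 of 8 (III) and 10 of 20 (IV) above 0. These counts carry no test.

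Genes that work with the subunits were described from lists. None of them passed in KO against WT in either population. In HSC the list of electron carriers and ubiquinone synthesis genes had a KO minus WT median of 0.27 (12 of 15 above 0), and its array means were 7.06 to 7.57 in KO and 6.72 to 6.96 in WT. The lowest p-values there belonged to the ubiquinone synthesis gene Coq7 (1.26, adjusted p = 0.586 in limma) and to Coq10a (1.18). Coq7 averaged 6.22 ± 0.37 in KO HSC and 4.95 ± 0.37 in WT HSC (SD). Its WT mean thus lay at the low-signal limit of the filter, 4.96. Citrate cycle and pyruvate dehydrogenase genes had a median of 0.26 (11 of 16 above 0), led by malate dehydrogenase Mdh2 (1.17, limma adjusted p = 0.523) and succinate-CoA ligase Suclg1 (0.79, and 0.50 without mouse 11). Assembly factors of complexes II to V had a median of 0.19 (22 of 31), led by the haem A synthesis gene Cox15 (-1.53) and by Uqcc3 (0.83). Complex I assembly factors had a median of -0.12 (2 of 16), led by Tmem186 (-0.42) and Dmac1 (-0.35), with Tmem186 at -0.20 without mouse 11 and Dmac1 at -0.16 without mouse 64. Regulators of mitochondrial biogenesis had a median of 0.01 (9 of 16), with Myc at 1.27 and Nrf1 at -1.16, and glycolysis genes 0.09 (11 of 18), with Slc2a1 at 1.36, or 0.50 without mouse 64.

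In MPP the same lists had KO minus WT medians of 0.04 for electron carriers (10 of 15 above 0), -0.01 for the citrate cycle (8 of 16) and -0.05 for assembly factors of complexes II to V (14 of 31). They were 0.11 for complex I assembly factors (9 of 16), 0.02 for regulators (9 of 16) and 0.12 for glycolysis (11 of 18). Tfb2m, a mitochondrial transcription factor, differed by 1.23 (limma adjusted p = 0.9999). The ubiquinone synthesis gene Coq2 differed by 1.003, but by 0.36 without KO mouse 2, and missed the threshold too. Some genes named for HSC above had the same direction in MPP, also short of the threshold. Nrf1 differed by -0.92 (-0.58 without mouse 12), Cox15 by -0.79 (-0.49 without mouse 70) and Suclg1 by 0.48 (0.26 without mouse 12).

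Between HSC and MPP over both genotypes, 3 genes of these lists passed, all lower in HSC. Cycs, the electron carrier cytochrome c, averaged 10.77 ± 0.15 in HSC and 11.19 ± 0.12 in MPP (SD over 6 arrays each; -0.42, limma adjusted p = 0.0486). Gabpa, the ETS factor whose letters were searched in the promoters, averaged 9.35 ± 0.38 in HSC and 10.05 ± 0.19 in MPP (-0.70, limma adjusted p = 0.0451). Pkm, the pyruvate kinase of glycolysis, averaged 8.04 ± 0.23 in HSC and 8.59 ± 0.18 in MPP (-0.55, limma adjusted p = 0.0378). With the mouse as a block none of the 3 passed (adjusted p = 0.128, 0.0649 and 0.112 in that order).

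Citrate cycle genes had an HSC minus MPP median of -0.40 (13 of 16 below 0, 0 passed), with citrate synthase Cs at -0.49 (-0.32 without mouse 2) and Mdh2 at -0.59. The electron carrier list had a median of -0.01 (1 of 15 passed), regulators -0.04 (1 of 16), glycolysis 0.06 (1 of 18), complex I assembly -0.01 and assembly of complexes II to V -0.05 (0 passed in either). In WT and KO alone these medians were -0.12 and 0.15 for electron carriers, -0.07 and -0.13 for regulators and -0.02 and -0.12 for glycolysis. They were 0.08 and -0.13 for complex I assembly, and -0.07 and 0.03 for assembly of complexes II to V. On the same arrays all 21 mitosis genes and all 19 DNA replication genes tested averaged lower in HSC than in MPP, with medians of -0.97 and -0.68. Of these, 15 and 6 passed the threshold, where 4.85% of all genes passed in either direction. Stem cell markers passed as higher in HSC in 10 of 15 and MPP markers as lower in 8 of 9. B cell markers (7 on the array) averaged 5.83 to 6.10 in HSC and 6.61 to 7.18 in MPP, and 4 of the 6 tested were lower past the threshold. The part of cell division or of other cells in the subunit differences was not tested.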

How the data were processed

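The deposited values are log2 signals per probe set that the authors made with RMA. This and their use of limma are known from the submitters' processing notes, per which no version is given. Per the labels' protocols, 300 pg of total RNA went into NuGEN amplification and biotin labelling for each array, which adds noise to weak transcripts. The deposited arrays had medians of 5.81 to 5.91 and SDs of 1.66 to 1.78 over all probe sets. RMA scales arrays to each other, so a shift shared by all transcripts would be lost. Precision is limited by the number of arrays.

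Of 22142 probe sets, 19527 had 1 symbol in the platform annotation, which can be old, and 2615 had none. The probe set with the highest mean was kept for 33 genes with several. All 85 subunits were matched by gene ID to RefSeq (GRCm38.p6). The 4874 genes in the lowest 25% by mean over 12 arrays (below 4.96) were left out.

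The 4 groups were fitted over 12 arrays with limma 3.58.1 and statmod 1.5.0 in R 4.3.3, with 6 contrasts; for the mean of both populations each mouse's arrays were averaged. The moderated tests were two-sided, and p-values were adjusted by Benjamini-Hochberg over 14620 genes. On simulated independent arrays the fit had to return known shifts on average. That check held no pairing by mouse, and how many changed genes it found is not given here. Medians over subunits carry no test.

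The labels name the mouse of each array, so HSC and MPP arrays pair by animal. Deviations of the 2 arrays of a mouse correlated across genes with r of 0.032 to 0.091, and 2 of 6 arrays matched their own partner best. A fit with mouse as a replicate block was 1 alternative. The others were no filter or a filter at 50%, a second quantile normalization, centring arrays on medians, a trended and robust prior, weights per array, a fit of the compared arrays alone, and dropping each mouse or the HSC array of KO mouse 2. Cyclic loess, and the block together with leaving out that array, were added after the data were seen.

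The subunits and the lists were chosen with earlier results of these data known. Subunits named were those that passed, the 2 per complex and up to 5 per direction with the lowest p (3 in the other comparisons), and isoforms. Of each list, up to 6 that passed and the 2 with the lowest p were eligible. Others are named where counts of 15 or fewer are spelled out, and those were chosen after their values were seen.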

Additional observations from a re-analysis of the deposited data

How the results depend on the processing

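The number of subunits that passed in KO against WT and in the interaction stayed at 0 under every alternative run. Between HSC and MPP the counts were small and moved. In WT, 1 subunit passed, but 0 did so with the mouse as a replicate block, a second quantile normalization, only the arrays compared or cyclic loess, and 2 with a trended and robust prior; leaving out a mouse gave 0, and leaving out the HSC array of KO mouse 2 gave 1. In KO, 1 passed, and 0 did so with the block, the trended prior, array weights, only the arrays compared, cyclic loess, leaving out any mouse or that array, or the block without that array. Over both genotypes 2 passed, with 1 under no filter, 3 with a trended and robust prior and 4 with arrays centred on their medians. The count was 0 with the block, the block without that array, second quantile normalization or cyclic loess. Leaving out arrays gave 0 to 2. The HSC minus MPP median in WT was -0.0443 after second quantile normalization and -0.0255 after cyclic loess, against -0.14. Over both genotypes it was -0.0242 and -0.0249, against -0.12. The spread of the arrays after these methods was not measured, and the cause of the shift in the median was not tested. The KO minus WT median in MPP, at 0.01, turned to -0.0177 without mouse 2, -0.0019 without mouse 12 and -0.0020 with array weights, within -0.0177 to 0.0356 over the mice left out. The interaction median was 0.192 without mouse 12, and 0.0608 to 0.192 over all arrays left out. Sdhb in MPP, at 0.09, turned to -0.00625 without mouse 2 and -0.0172 without mouse 64, within -0.0172 to 0.208 over the mice left out. Over the named genes, 1692 values kept direction and side, 75 lost the threshold, 5 gained it and 2 reversed. The cause was not tested. Only results past the threshold could lose it. In HSC minus MPP, Atp5g3 kept its call under 7 of 17 alternatives in WT and 7 of 18 over both genotypes. Sdhb kept it under 5 of 18 in KO and 9 of 18 over both genotypes. Over both genotypes Cycs and Pkm kept theirs under 7 of 18 each, and Gabpa under 8 of 18. The block changed no call of another subunit or named list gene.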
